A study of Mus musculus with 8 samples.

Results

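The regions described here are 1409 H2A.Z peaks of control mouse testis, each under 2500 bp wide, that were broken into several peaks in the Znhit1-CKO list. A control peak was chosen by its overlap, of at least 1 bp, with 2 or more Znhit1-CKO peaks. They make up 2.89% (95% interval 2.74 to 3.04%) of the 48752 control peaks, and 6.02% (5.72 to 6.33%) of the 23398 control peaks under the width limit that shared any base with a Znhit1-CKO peak. Of the rest under that limit, 21989 overlapped exactly 1 Znhit1-CKO peak, called unbroken shared peaks below, and 24724 overlapped none. The positions of both peak lists chose the broken peaks, so their number, gaps and lengths kept are a description and carry no test.

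H2A.Z is a variant of histone H2A that replaces the canonical histone in a small share of nucleosomes. The SRCAP complex, of which ZNHIT1 is a subunit, exchanges H2A for H2A.Z. At many active genes H2A.Z lies in the nucleosomes on both sides of the transcription start, and a short stretch just upstream of the start holds few nucleosomes. In the testis the germ cells pass through meiosis, when chromatin around genes is reset for the spermatocyte programme, and the study asks how ZNHIT1 affects where H2A.Z lies.

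The study sequenced chromatin of testis cells from mice at postnatal day 14, after an anti-H2A.Z immunoprecipitation or as input. Its groups were Znhit1-CKO (written Znhit1-sKO in the protocol, a conditional deletion of Znhit1) and control, with 2 biological replicates of immunoprecipitate and 2 of input in each. The Cre driver, the cells in which Znhit1 was deleted and the control genotype are not given in the labels. The whole digested testis was used, so germ and somatic cells are mixed. Fewer cells with H2A.Z at a site and less H2A.Z there per cell cannot be told apart. Each genotype has 1 deposited peak list with positions only, and a separate list holds differential regions without a direction. There is thus no replicate error for any value below. Intervals are exact 95% intervals over peaks, gaps or genes, cover counting error only, and treat neighbouring regions as independent. A gap is a stretch between neighbouring called peaks, so it shows that signal did not pass the peak threshold there, not that H2A.Z was absent. Among 9 marker genes of germ, spermatocyte, Sertoli and Leydig cells, 8 had a control peak at a gene end and 1, the Sertoli gene Sox9, had a broken peak. Over all protein-coding genes with a control peak at an end, 8.34% had a broken peak there, so these few markers say nothing about cell type.

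Of the gaps within 1000 bp of a gene start, 56.1% were centred in the 200 bp upstream of it, so promoter sequences are shown for the genes named below with the widest gaps at their start, and for H2az1, which encodes H2A.Z itself. Each line gives the 250 bases before a RefSeq start on GRCm38.p6, 5′ to 3′ on the strand of the gene, and capitals mark the bases that lie in a gap between Znhit1-CKO peaks.
Rnf145 (chr11:44519127-44519376, plus strand): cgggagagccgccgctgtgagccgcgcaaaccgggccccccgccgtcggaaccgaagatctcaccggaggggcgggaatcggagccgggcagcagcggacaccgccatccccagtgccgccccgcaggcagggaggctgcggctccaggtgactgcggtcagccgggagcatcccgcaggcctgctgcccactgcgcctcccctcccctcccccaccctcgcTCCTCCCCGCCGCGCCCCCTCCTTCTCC
Nufip2 (chr11:77685889-77686138, plus strand): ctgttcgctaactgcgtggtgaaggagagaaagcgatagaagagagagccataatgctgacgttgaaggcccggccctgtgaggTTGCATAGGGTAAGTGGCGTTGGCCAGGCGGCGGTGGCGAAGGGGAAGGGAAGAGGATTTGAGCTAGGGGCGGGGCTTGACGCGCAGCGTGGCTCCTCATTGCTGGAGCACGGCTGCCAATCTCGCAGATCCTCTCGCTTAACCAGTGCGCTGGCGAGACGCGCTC
H2ac6 (chr13:23683960-23684209, minus strand): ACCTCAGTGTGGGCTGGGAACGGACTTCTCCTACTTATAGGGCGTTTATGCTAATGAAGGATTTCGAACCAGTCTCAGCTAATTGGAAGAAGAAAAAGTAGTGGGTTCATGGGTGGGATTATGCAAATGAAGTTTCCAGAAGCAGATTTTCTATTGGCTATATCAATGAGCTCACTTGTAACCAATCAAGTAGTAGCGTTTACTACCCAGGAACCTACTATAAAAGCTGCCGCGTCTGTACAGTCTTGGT
Serf2 (chr2:121448948-121449197, plus strand): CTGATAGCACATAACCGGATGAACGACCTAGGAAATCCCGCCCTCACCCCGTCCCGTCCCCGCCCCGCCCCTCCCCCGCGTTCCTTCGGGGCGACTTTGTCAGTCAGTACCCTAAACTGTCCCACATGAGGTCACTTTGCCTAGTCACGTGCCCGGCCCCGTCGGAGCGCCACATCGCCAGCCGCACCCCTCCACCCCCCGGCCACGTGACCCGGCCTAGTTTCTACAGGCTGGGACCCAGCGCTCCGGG
Slc43a2 (chr11:75531862-75532111, plus strand): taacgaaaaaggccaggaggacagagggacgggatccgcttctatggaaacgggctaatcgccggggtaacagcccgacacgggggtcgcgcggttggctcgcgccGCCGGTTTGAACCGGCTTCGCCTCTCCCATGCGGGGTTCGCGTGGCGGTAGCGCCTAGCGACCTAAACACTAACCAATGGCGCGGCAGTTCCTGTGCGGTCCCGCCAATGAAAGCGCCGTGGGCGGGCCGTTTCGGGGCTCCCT
Hmgb3 (chrX:71555667-71555916, plus strand): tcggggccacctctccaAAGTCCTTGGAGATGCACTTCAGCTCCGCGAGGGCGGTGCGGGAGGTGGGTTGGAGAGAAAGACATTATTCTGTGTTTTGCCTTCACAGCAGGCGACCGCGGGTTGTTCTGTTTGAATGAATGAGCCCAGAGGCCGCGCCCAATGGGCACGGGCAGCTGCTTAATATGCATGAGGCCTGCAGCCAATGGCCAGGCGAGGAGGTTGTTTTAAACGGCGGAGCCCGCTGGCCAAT
Anp32e (chr3:95929007-95929256, plus strand): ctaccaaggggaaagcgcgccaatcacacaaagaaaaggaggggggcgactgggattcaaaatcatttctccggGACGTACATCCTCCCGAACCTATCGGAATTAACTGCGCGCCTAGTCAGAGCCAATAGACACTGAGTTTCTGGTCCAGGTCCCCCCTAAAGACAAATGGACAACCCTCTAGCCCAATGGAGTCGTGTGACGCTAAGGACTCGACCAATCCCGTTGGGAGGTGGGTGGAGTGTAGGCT
Nabp1 (chr1:51478400-51478649, minus strand): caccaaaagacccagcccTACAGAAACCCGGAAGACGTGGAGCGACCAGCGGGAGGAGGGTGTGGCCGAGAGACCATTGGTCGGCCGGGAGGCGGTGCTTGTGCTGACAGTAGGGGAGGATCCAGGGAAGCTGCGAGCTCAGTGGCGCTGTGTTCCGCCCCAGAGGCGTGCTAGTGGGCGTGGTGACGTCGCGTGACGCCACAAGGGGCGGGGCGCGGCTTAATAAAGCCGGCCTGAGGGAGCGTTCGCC
H2az1 (chr3:137864237-137864486, plus strand): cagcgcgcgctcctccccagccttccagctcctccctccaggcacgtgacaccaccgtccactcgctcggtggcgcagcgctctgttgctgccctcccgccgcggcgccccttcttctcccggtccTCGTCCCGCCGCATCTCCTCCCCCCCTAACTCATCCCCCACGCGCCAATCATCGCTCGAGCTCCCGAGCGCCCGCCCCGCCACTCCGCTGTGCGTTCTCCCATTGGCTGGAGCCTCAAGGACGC
These promoters differ in base composition and in how much of them the gap takes in. The whole H2ac6 and Serf2 stretches lie in the gap, and of the Rnf145 stretch only the 28 bases next to the start do. The H2ac6 stretch has 43.2% G and C with 6 CpG, and the Rnf145 stretch 76.0% with 27 CpG. H2ac6, a replication-dependent histone H2A gene, has the TATA box word TATAAA 32 bases before its start and the NF-Y word CCAAT, on either strand, 169, 98 and 69 bases before it. Anp32e, which encodes a chaperone that removes H2A.Z, holds CCAAT 4 times, and 3 of these lie in its gap. H2az1 holds CCAAT 80 and 23 bases before its start, both in the gap, with the GC box word GGGCGG between them. Word matches are a description and not evidence that a factor binds.

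**Figure D1:**
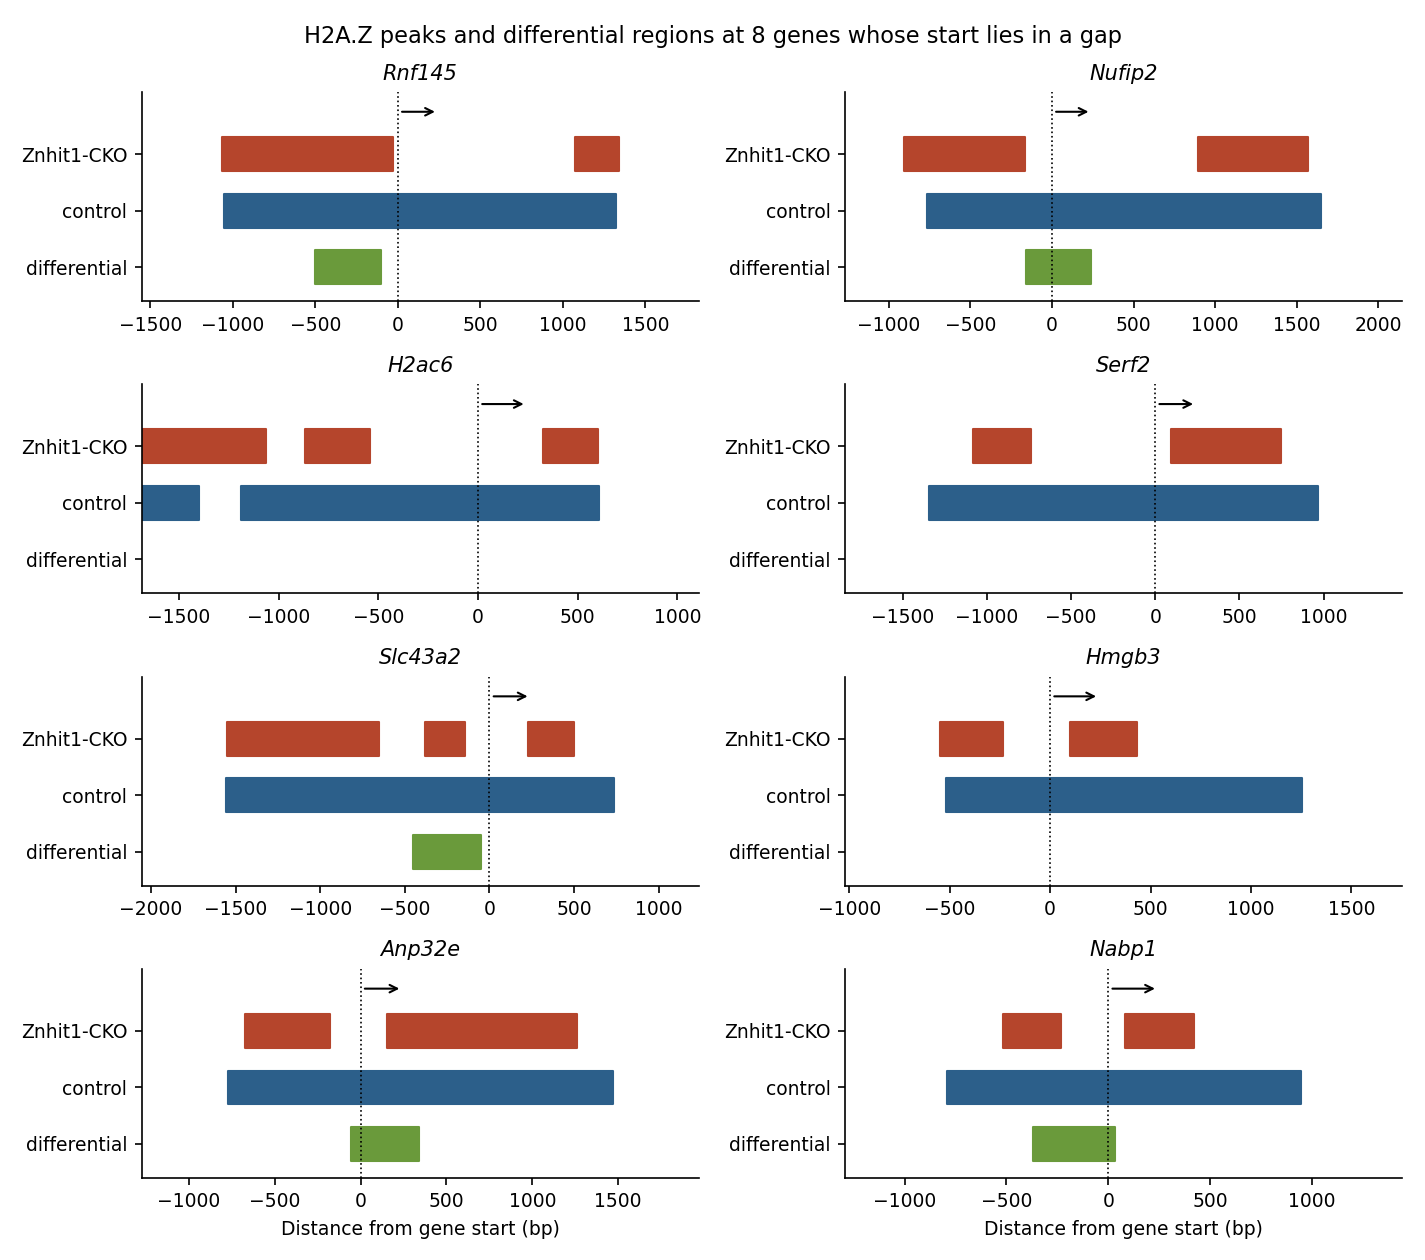
Znhit1-CKO peaks (top bars), control peaks (middle bars) and differential regions (bottom bars) around the 8 gene starts whose promoters were picked by gap width, in bp from the start along the gene's strand. In each panel the control bar is continuous over the start and the Znhit1-CKO bars leave it uncovered, in gaps of 314 bp (Nabp1) to 1104 bp (Rnf145).

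Most broken peaks split in a simple way, into a larger and a smaller piece with a short gap near the middle. Of the 1409 peaks, 1381 overlapped 2 Znhit1-CKO peaks, 27 overlapped 3 and 1 overlapped 4, which gives 2847 Znhit1-CKO peaks and 1438 gaps. With Znhit1-CKO peaks at most 200 bp apart joined, 840 control peaks were broken. The peak with 4 pieces lies at chr14:34763815-34765785, with no protein-coding gene end within 1000 bp. There, Znhit1-CKO peaks of 435, 243, 204 and 389 bp stood in a control peak of 1971 bp, which kept 64.5% of its length. The median gap was 214 bp (95% interval 210 to 219 bp), with quartiles of 179 and 283 bp and a range of 151 to 1525 bp. A gap was under 200 bp in 40.1% of cases and under 300 bp in 78.7%, and 77 gaps (5.35%) were 500 bp or wider. Neighbouring peaks are never closer than 151 bp in the Znhit1-CKO list and 150 bp in the control list, so a narrower dip could not appear as a gap. Gap centres fell in the middle 20% of the control peak in 50.5% (47.9 to 53.1%) of cases and in the outer 20% at either side in 4.73%. The larger Znhit1-CKO piece had a median width of 752 bp and the smaller 421 bp, against 667 bp for all 31156 Znhit1-CKO peaks.

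Broken peaks kept most of their length. The median share of a control peak covered by its Znhit1-CKO pieces was 72.7% (72.0 to 73.5%), with quartiles of 63.4 and 80.2%. The most that was kept was 92.2%. In 112 broken peaks (7.95%) under 50% was kept, and in 363 (25.8%) at least 80% was. Of the 2340342 bases in broken peaks, 1658906 (70.9%) were kept, 368170 lay in gaps and 313266 lay in ends trimmed off outside the outermost pieces. Gaps thus hold 54.0% of the bases not kept. Pieces also reached beyond the old borders, past 1 edge of the control peak in 41.3% of broken peaks and past both edges in 9.79%.

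**Figure D2:**
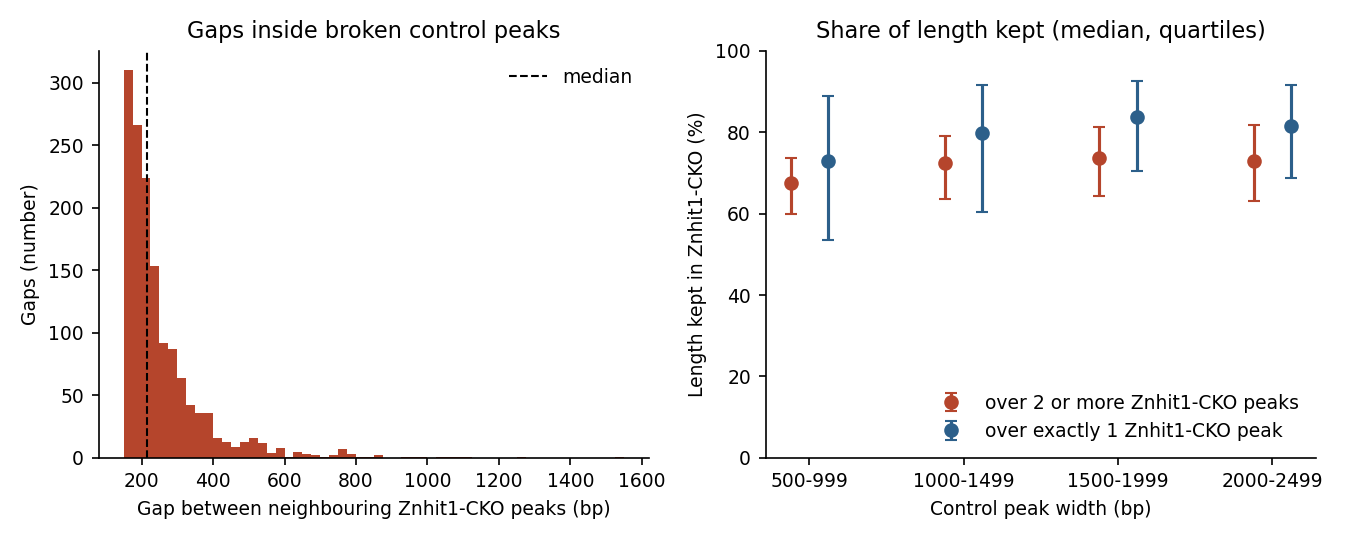
Number of gaps by width (bp) between neighbouring Znhit1-CKO peaks, and share of control length kept (%) in broken and unbroken shared peaks by class of control width (points are medians, bars quartiles). Gaps pile up just above the smallest distance of 151 bp, and in each class of 1000 bp or more the median share kept is lower in broken peaks than in unbroken shared peaks. Each broken peak holds a gap by the rule, which lowers its share kept.

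Breaking was seen mostly in wide peaks. The median control width was 1659 bp for broken peaks, against 1114 bp for unbroken shared peaks and 742 bp for all control peaks. Among control peaks that shared a base with the Znhit1-CKO list, the broken share was 0.156% below 500 bp (4 peaks), 1.12% from there to under 1000 bp, 5.56% from 1000 to under 1500 bp, 12.3% from 1500 to under 2000 bp and 21.1% from 2000 bp up to the limit. A broken peak needs room for 2 pieces and a gap, and the narrowest Znhit1-CKO peak was 188 bp. The widest broken peaks were 2489, 2487 and 2480 bp, and the narrowest split peaks left out by the limit were 2501 bp each in 3 cases. Width classes are therefore used for length kept, gene ends, divergent starts and differential regions against unbroken shared peaks. Other comparisons below are not matched by width class. In the classes from 1000, 1500 and 2000 bp, broken peaks kept medians of 72.5, 73.6 and 73.0%, against 79.9, 83.8 and 81.6% in unbroken shared peaks of those widths. A broken peak loses a gap by the rule, so its lower share kept is set in part by the choice of peaks. Gaps took a median of 14.2% of the control width of broken peaks, and trimmed ends 10.2%.

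Splitting went mostly one way between the genotypes. With the lists swapped, 162 Znhit1-CKO peaks under the same limit (0.520% of 31156) overlapped 2 or more control peaks, and 82 did with control peaks at most 200 bp apart joined. Their 165 control-list gaps had a median of 203 bp, near that of the 1438 gaps in broken peaks. Of 2476 distances of at most 500 bp between neighbouring Znhit1-CKO peaks, 1601 (64.7%, 62.7 to 66.5%) were spanned by 1 control peak. Of 3113 such distances in the control list, 168 (5.40%, 4.63 to 6.25%) were spanned by 1 Znhit1-CKO peak. However, 2386 of these 3113 (76.6%) had no Znhit1-CKO peak in them at all. Only 233 of the 2476 Znhit1-CKO distances (9.41%) had no control peak in them, so the 2 shares have unlike bases. The control list holds more and wider peaks, and the part of that, and of sequencing depth, in this imbalance was not tested.

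Near genes, gap centres were densest just upstream of the start. Starts were known for 17492 protein-coding genes on all chromosomes that hold broken peaks except chromosome 18, which leaves 1358 broken peaks and 1386 gaps. Of these gaps, 472 (34.1%, 31.6 to 36.6%) had their centre within 200 bp upstream of a start, and 73 (5.27%) within 200 bp downstream. Among the 842 gaps (60.8%) within 1000 bp of a start the centre lay a median of 91 bp upstream of it, and 56.1% were in the 200 bp upstream. The gaps of the swapped lists gave 17 of 156 (10.9%), and distances of up to 500 bp between control peaks 246 of 3008 (8.18%). Restricted to those within 1000 bp of a start, these shares were 28.8 and 27.9%. A start itself lay in 367 gaps (26.5%, 24.2 to 28.9%), against 12 of 156 swapped gaps (7.69%, 4.04 to 13.1%).

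**Figure D3:**
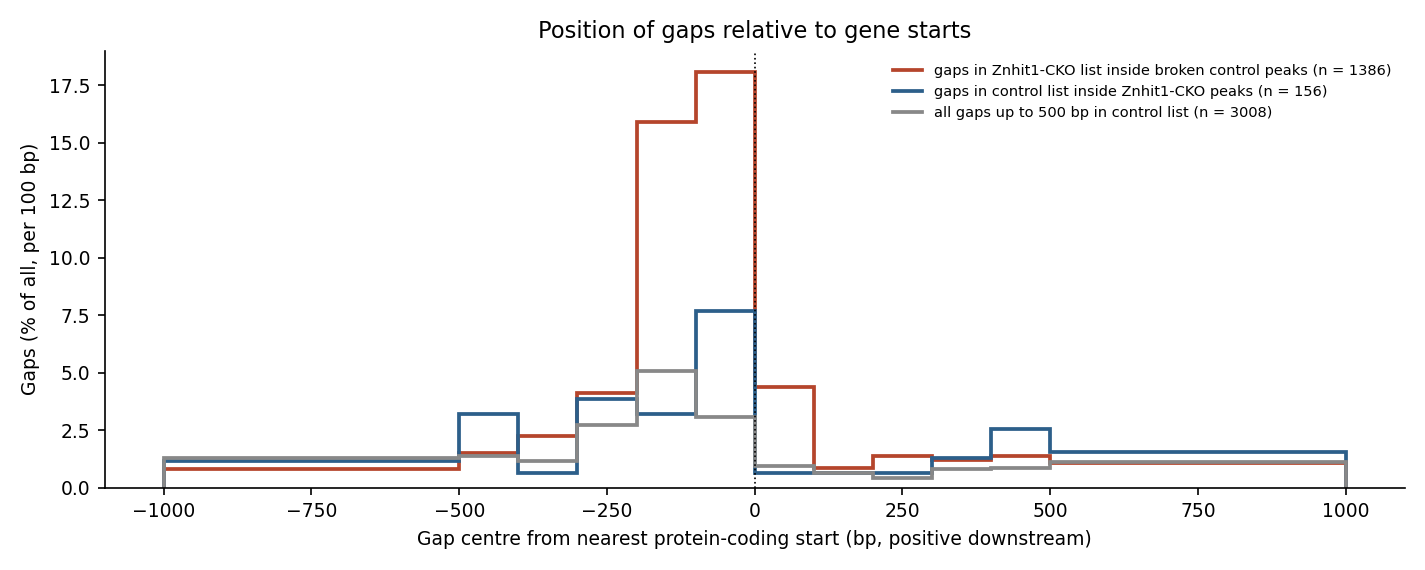
Position of gap centres relative to the nearest protein-coding gene start (bp, negative is upstream), as a share of gaps (%) per 100 bp, for gaps in broken peaks and for the same measure in the swapped lists and between neighbouring control peaks. The line for broken peaks is highest in the 200 bp upstream of the start, which hold 34.1% of their gaps.

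Since gaps lie near the middle of a peak, starts were also counted per length within the middle 20% of broken peaks alone. There, gaps held 1.46 starts per 1000 bases (242 starts) and Znhit1-CKO pieces 1.01 (287 starts). Over the whole broken peaks the density was 1.12 in gaps, 0.425 in pieces and 0.0667 in trimmed ends. The coverage around starts, set in part by the choice of peaks, is given as a description. At 80 bp upstream of the 839 starts in broken peaks, Znhit1-CKO peaks covered 36.6% and control peaks 99.2%. Of the starts in a broken peak the one nearest its gap centre was used, which favours low Znhit1-CKO coverage there. At the start itself, the shares were 54.8% for Znhit1-CKO and 100% for control. The coverage was higher again on both sides, at 91.7% for Znhit1-CKO against 99.8% for control at 200 bp downstream, and 81.8% against 95% at 400 bp upstream. Around 7297 starts in unbroken shared peaks of 1000 bp or more, coverage at 80 bp upstream was 92.2% for Znhit1-CKO and 99.3% for control. Where a gap was centred in the 200 bp upstream, the downstream piece, over the start of the gene body, had a median of 655 bp and the upstream piece 578 bp, and the downstream piece was the wider in 275 of 463 (59.4%).

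**Figure D4:**
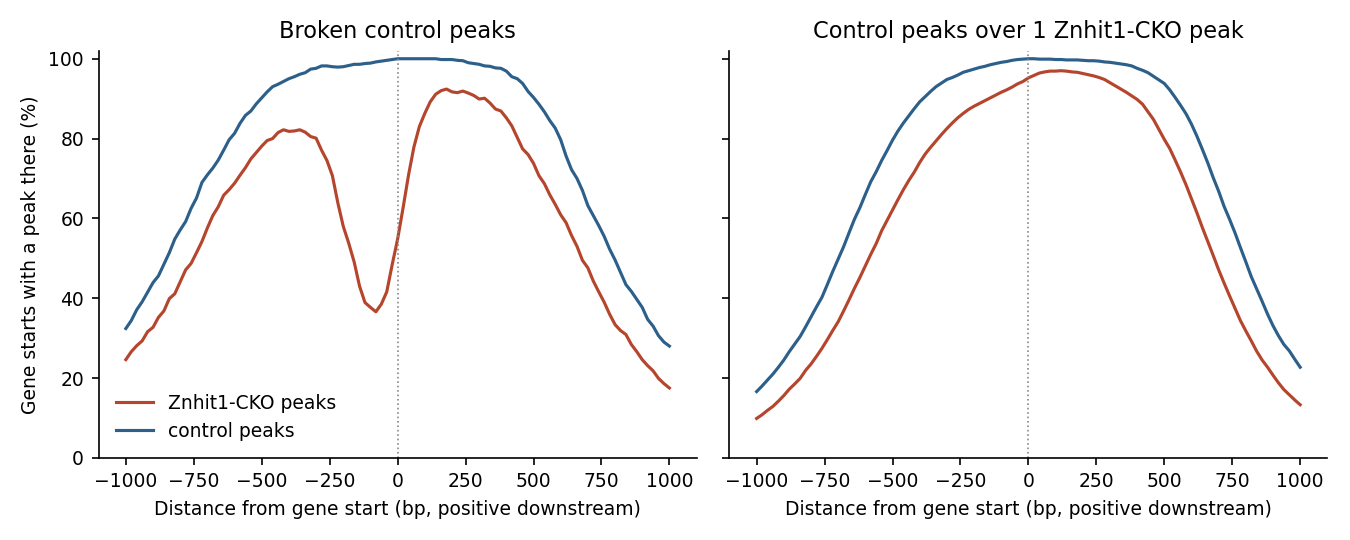
Share of gene starts (%) covered by a Znhit1-CKO peak and by a control peak, against distance from the start (bp along the gene), for 839 starts in broken peaks and 7297 starts in unbroken shared peaks of at least 1000 bp. In broken peaks the Znhit1-CKO line dips to 36.6% at 80 bp upstream while the control line is at 99.2%.

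In all, 1025 broken peaks (72.7%, 70.3 to 75.1%) lay within 1000 bp of an end of a protein-coding gene, against 49.5% of unbroken shared peaks and 31.1% of all control peaks. The difference was smaller within classes of width. In the class from 1000 bp the shares were 69.1% of broken and 61.5% of unbroken shared peaks, in that from 1500 bp 78.2 and 79.7%, and in that from 2000 bp 80.5 and 80.3%. The 384 broken peaks away from such ends were narrower, with a median of 1488 bp against 1707 bp at ends, and kept less, with 68.3% against 73.8%. Their gaps had the same median of 214 bp, and 173 of them (45.1%) lay inside a protein-coding gene. Divergent pairs of starts at most 1000 bp apart occurred in 96 of the 839 broken peaks with a start (11.4%), against 6.44% of unbroken shared peaks with one. By class of width, the shares were 11.5% of broken (7.76 to 16.2%) and 5.76% of unbroken shared peaks (5.02 to 6.57%) from 1000 bp, 13.6% (10.3 to 17.5%) and 9.08% (8.06 to 10.2%) from 1500 bp, and 7.88% (4.57 to 12.5%) and 8.27% (6.44 to 10.4%) from 2000 bp. By chromosome, 5.99% of shared control peaks on the autosomes and 35 of 476 on the X (7.35%, 5.17 to 10.1%) were broken, and these intervals overlap.

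The differential regions of the authors come from the same contrast as the peaks and are given as a description. Of all control peaks, 48.9% had such a region, and of the broken peaks 829 (58.8%, 56.2 to 61.4%), against 45.2% of unbroken shared peaks. Within width classes the order turned round, with 54.3, 62.9 and 66.2% of broken peaks against 58.5, 67.2 and 72.8% of unbroken shared peaks, in ascending width from 1000 bp. No broken peak had more than 1 region, and 24362 of the 24367 regions are 400 bp wide, more than most gaps. A region touched 484 gaps (33.7%) and covered 101 of them whole (7.02%). It covered 18.6% of all gap bases, 15.7% of the bases in pieces and 0.563% of the bases in trimmed ends. Region centres fell in a gap in 164 cases, in a piece in 662 and in a trimmed end in 2, or 0.445, 0.399 and 0.00638 per 1000 bases. Among the 829 broken peaks with a region, 483 (58.3%) had it on a gap and 345 (41.6%) on pieces alone. Gaps centred in the 200 bp upstream of a start had a region in 47.0% of cases (222 of 472), against 26.8% of other gaps (245 of 914). Other gaps include those away from genes. Broken peaks at protein-coding gene ends had a region in any part in 64.5% of cases (661 of 1025), against 43.8% (168 of 384) away from them. The part of this in the contrast between gaps was not tested. Gaps with and without a region were of like width, with medians of 215 and 214 bp.

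Promoters with the start in a gap were about as rich in CpG as those of unbroken shared peaks, and held CCAAT more often. Windows of 300 bases, 250 upstream and 50 downstream, held a median of 24 CpG where the start lay in a gap (398 promoters), 23 in unbroken shared peaks of 1000 bp or more (8970) and 13 in all 21230 promoters in the table. CCAAT, on either strand, was found in 52.0% of promoters with the start in a gap, 46.0% with the start in a piece (681), 35.6% in the unbroken shared peaks and 38.2% of all promoters. The NRF1 word GCATGCGC was found in 9.05, 6.61, 5.52 and 3.52% of these sets, and GGGCGG in 78.9, 78.1, 69.4 and 46.2%. TATAAA was found in 5.53, 4.41, 5.22 and 12.6%. The ETS word CCGGAAG was in 22.9% of promoters with the start in a gap, and 19.8% of the unbroken shared peaks. The E-box CACGTG was in 9.05 and 10.6%, the YY1 word AAGATGGCG in 3.27% of both, the cAMP response word TGACGTCA in 5.28 and 3.52%, and the MYB word CAGTTG in 9.30 and 9.01%.

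The genes of the histone and its exchange machinery come first among the gene groups. Over all protein-coding genes with a control peak at an end, 1235 of 14815, or 8.34%, had a broken peak there, and the count of each group is set beside that share. In the group of H2A.Z and its exchange complexes 4 of 23 genes did (17.4%, 4.95 to 38.8%), and this interval takes in 8.34%. H2az1 had a control peak of 2277 bp at chr3:137863434-137865710, over which the Znhit1-CKO list had peaks of 669, 292 and 600 bp with gaps of 210 and 222 bp. The first gap runs from 124 bp upstream to 85 bp downstream of the H2az1 start, 68.6% of the length was kept, and no differential region lies on that peak. A second control peak at H2az1, of 1312 bp at chr3:137867298-137868609, was not broken. It overlapped 1 Znhit1-CKO peak, kept 92.5% and had a differential region. H2az2, the gene of the second H2A.Z isoform, had a control peak of 1518 bp with Znhit1-CKO peaks of 778 and 651 bp and a gap of 155 bp, from 231 to 77 bp upstream of the start. A differential region covers 99 bp of that gap. The peak of Anp32e kept 71.4% of 2245 bp around a gap of 327 bp, of which a differential region covers 209 bp. That of Ing3, a subunit of the NuA4/TIP60 acetyltransferase complex, kept 81.1% of 2090 bp around a gap of 242 bp. Znhit1 itself had no broken peak. Its control peak of 2003 bp overlapped 1 Znhit1-CKO peak and kept 71.0%.

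Genes of basic cell functions had some of the larger shares, with wide intervals. Proteasome subunits had a broken peak in 8 of 38 (21.1%, 9.55 to 37.3%), core and linker histones in 13 of 69 (18.8%, 10.4 to 30.1%), splicing factors in 8 of 43 (18.6%) and Polycomb and Trithorax genes in 6 of 36 (16.7%). The intervals of the proteasome, histone and splicing groups lie above 8.34%, the last by little (8.39 to 33.4%), with 23 groups compared and the groups chosen with earlier results known. The widest control peak at a gene end had a median of 1320 bp over the proteasome genes, 1175 bp over the histones and 1501 bp over the splicing factors, against 1429 bp over all genes. Neighbouring histone genes can share a peak. H2ac6 with H2bc4, H2ac11 with H2bc11, H2bc3 with H3c3, and H2ac13 with H2bc13 and H3c10 each do so. The histone interval counts these genes as independent and is thus too narrow. H2az1 and H2az2 are counted both there and in the H2A.Z group. Psma1, a subunit of the 20S core, had Znhit1-CKO peaks of 555 and 823 bp on a control peak of 1776 bp, with a gap of 151 bp, the smallest found, and its start within it. Psmd14, the deubiquitinase of the proteasome lid, kept 83.3% around a gap of 197 bp, of which 139 bp were differential. H2ac6 and H2bc4 share a control peak of 1795 bp, which kept 40.2% around gaps of 871 and 196 bp. The peak shared by H2ac13, H2bc13 and H3c10 had a gap of 156 bp. Suz12, a core subunit of Polycomb repressive complex 2, kept 85.7% of 1843 bp, with its start in a gap of 168 bp. Among splicing factors, Srsf2 and Srsf7 had their starts in gaps of 311 and 222 bp.

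Translation genes had counts nearer to the background, with 9 of 82 cytoplasmic ribosomal protein genes, 9 of 76 mitochondrial ribosomal protein genes and 8 of 55 initiation factor genes. Rps12 and Rpl7a had their starts in gaps of 203 and 172 bp, and the Rpl7a peak is shared with the Mediator gene Med22. Zinc finger genes named Zfp had a broken peak in 19 of 341 (5.57%), solute carriers in 23 of 264 and Wnt pathway genes in 5 of 44. Gsk3b, the kinase that marks β-catenin for destruction, had a control peak of 2475 bp cut near its middle into 1110 and 1120 bp, with the start in the gap of 202 bp and 90.1% kept.

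Genes of the germ line had counts near or below the background. Meiotic axis, synapsis and recombination genes had 2 of 51, pachytene spermatocyte genes 2 of 25, spermiogenesis genes 1 of 16, spermatogonial genes 3 of 32 and piRNA pathway genes 0 of 26 (upper bound 13.2%). The widest control peak at a gene end had a median of 870 bp over the piRNA genes and 1280 bp over the meiotic group, below the 1429 bp over all genes. Mybl1, the transcription factor that drives pachytene genes, had a control peak of 1923 bp with Znhit1-CKO peaks of 897 and 940 bp, a gap of 208 bp and 89.2% kept, and a differential region covers 142 bp of the gap. Cdc25c, a phosphatase for entry into division, kept 81.6% around a gap of 181 bp. The broken peak at Hormad1, a meiotic axis gene, had in its gap the start of the neighbouring Golph3l, and that at Rec114, needed for meiotic double-strand breaks, holds the start of the neighbouring Hcn4. Odf2, of the sperm tail, had a gap of 156 bp, with some of its annotated starts in the gap and others outside it. Among spermatogonial genes, Zbtb16 (PLZF) kept 64.6% of 2295 bp, Dmrt1 61.0% of 2400 bp and Bcl6b 49.9% of 2293 bp, the last with a gap of 764 bp.

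Of the somatic markers, 2 of 18 Sertoli genes (11.1%, 1.38 to 34.7%), Sox9 and Dhh, and 0 of 14 Leydig, peritubular, endothelial and immune markers (upper bound 23.2%) had a broken peak, and both intervals take in 8.34%. Olfactory receptor genes had 0 of 50, with a median of 704 bp for the widest peak. Developmental transcription factors had 5 of 66, of which 4 kept less than the median of 72.7%. Foxd3 kept 37.2%, Pax3 43.8%, Tbx3 53.0%, Dlx2 61.1% and Gata6 75.6%. The remaining groups were G2/M genes with 3 of 30, DNA damage and meiotic silencing genes with 2 of 26 and Mediator subunits with 3 of 29. Ccna2 and Incenp, both of the G2/M group, had gaps of 188 and 166 bp. The Brca1 peak, shared with Nbr1, had an annotated start of Nbr1 in its gap of 195 bp and another outside it.

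**Figure D5:**
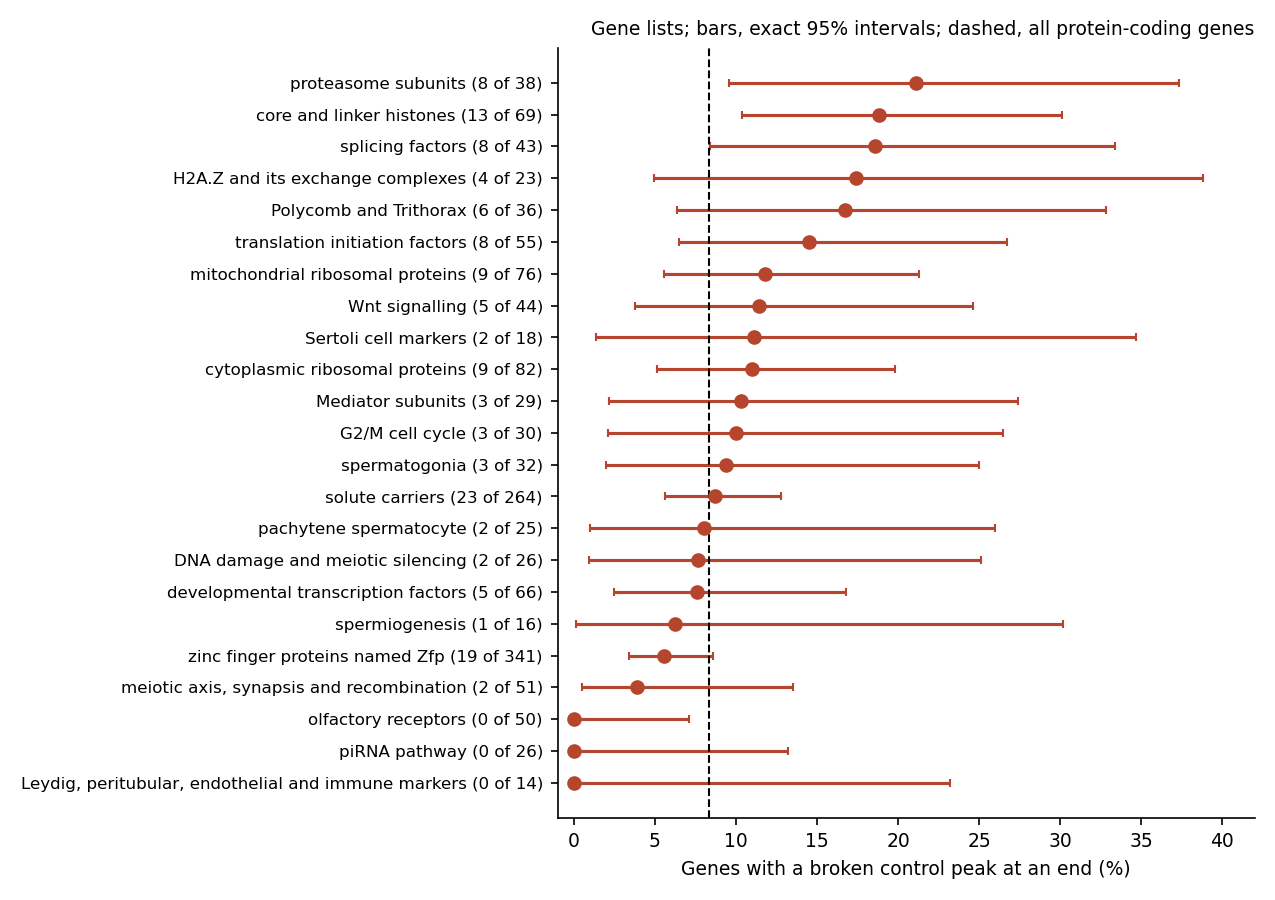
Share (%) of genes with a control peak at an end that had a broken peak there, for 23 gene lists, with exact 95% intervals and the share of 8.34% over all protein-coding genes as a line. Proteasome subunits are at 21.1%, histones at 18.8% and olfactory receptors and piRNA pathway genes at 0.

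Among broken peaks at protein-coding gene ends, the extremes of gap width and of length kept were at genes of varied roles. The smallest share kept in any broken peak, 25%, was away from such ends. Chrm4, a muscarinic acetylcholine receptor gene, had the widest gap, 1525 bp, from 113 to 1637 bp downstream of its start, and kept 30.3% of 2451 bp. Rnf145, a ubiquitin ligase of the endoplasmic reticulum, had a gap of 1104 bp, and Nufip2, an RNA-binding protein gene, one of 1058 bp in which the whole of a 400 bp differential region lies. The gap at Fgf15, which encodes a hormone of bile acid control, was 947 bp and also holds a whole region. Id3, an inhibitor of basic helix-loop-helix factors, kept 30.7%, Adrb1, the beta-1 adrenergic receptor gene, 32.6% and Sim1, a transcription factor gene, 35.9%. At these 3 genes the gap was 282, 200 and 239 bp, and trimmed ends took 1093, 1126 and 620 bp, so most of the length not kept lay outside the pieces. Hmgb3, a chromatin protein gene on the X, kept 35.1% and Nabp1, of a single-stranded DNA-binding protein, 36.1%, each with its start in the gap. The peak shared by Axl and Hnrnpul1 kept 31.8%, and its whole gap of 280 bp was differential.

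Broken peaks with 3 pieces were few. Ect2, a gene needed for cytokinesis, kept 80.7% and had Znhit1-CKO peaks of 747, 493 and 542 bp with gaps of 206 and 172 bp. An annotated start of Ect2 lay in the gap of 206 bp and another lay outside the gaps. Thbs1, which encodes thrombospondin-1, had 322, 520 and 221 bp and kept 44.9%. Nrn1 kept 67.8%, Slc2a8 77.9% and Slc43a2 61.3% in 3 pieces each. The 6 widest broken peaks picked by the naming rule kept 74.1% at Sgpl1, 75.8% at Pgr, 81.4% at Tfeb, 90.1% at Gsk3b, 83.4% at Lrch1 and 82.7% at Tmem178b. Of the 97 broken peaks chosen by the naming rule, 53 (54.6%) had a differential region. The share was 58.8% over all broken peaks and 64.5% over those at protein-coding gene ends, where all 97 lie. A gene start lay in a gap in 29 (29.9%) of the 97. Named peaks on chromosome 18, which was not analysed for starts, count there as having none. Over all broken peaks outside chromosome 18, 26.5% of gaps held a start.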

How the data were processed

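Per the submitters' processing notes, the tools were MACS2 2.2.4, BWA 0.7.17, cutadapt 2.5, Picard 2.20.7 and SAMtools 1.9, on mm10. The authors deposited 3 lists of intervals with no score, count or p: control peaks, Znhit1-CKO peaks and differential regions. Not given in the sources used here are how peaks and differential regions were thresholded, whether replicates were pooled, and which way a region differs. Depth per library is unknown beyond the protocol's over 30000000 reads.

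The broken peaks and gene lists were chosen with earlier results of these data known. Overlaps were counted with numpy 2.4.6 and pandas 2.3.3, and differed from bedtools 2.31.1 at 0 of 48752 control peaks. Of 500 broken peaks planted in simulated lists, 500 were found. Gene ends were those of RefSeq on GRCm38.p6 (49997 genes, 21900 protein-coding), starts and sequences from its promoter table. Broken peaks on chromosome 18 (51) were not analysed for starts. Shares have Clopper-Pearson intervals and medians binomial order-statistic intervals.

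Named genes are the 8 with the widest gap, the 8 with the smallest share kept, the 6 with the most pieces, the 6 widest control peaks, up to 5 per list by width, and Znhit1, H2az1 and H2az2, each within 1000 bp of a protein-coding gene end. Predicted genes were left out. Promoters are shown for the first 8 with a start in a gap by gap width. The H2az1 promoter was added after its values were seen. Alternatives were other joining distances, width limits, windows and gene sets.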

Additional observations from a re-analysis of the deposited data

How the results depend on the processing

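Of 37 values recomputed under alternatives, 21 stayed within the 95% interval of the reported value or, for counts of peaks, within 1.5 times the reported count, and 16 did not. With Znhit1-CKO peaks at most 200 bp apart joined, and the control list treated alike, 840 peaks were broken, the median gap was 263 bp, the median share kept 70.0%, the swapped count 82, and gap centres in the 200 bp upstream of a start 31.3%. With peaks under 300 bp left out, the share kept was 74.5%, the share at gene ends 76.5%, gaps with a start 29.2% and gap centres upstream 38.6%. With no width limit, gaps with a differential region were 30.6%, gaps with a start 24.2% and gap centres upstream 30.4%. A window of 2000 bp put 75.4% of broken peaks at gene ends, and ends of all annotated genes gave 80.5%, with 28.9% of gaps holding a start. Asking for 50% or more of a gap under a differential region gave 19.3%. Alternatives for gap centres were added after the values were seen. The lists give positions only, so peak strength and depth could not be weighed. No paired analysis was possible because each genotype has 1 peak list, which also means that no replicate could be left out.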
